A study of Mus musculus with 9 samples.

Results

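The 10 genes described here encode plasma proteins. They are the orosomucoids Orm1, Orm2 and Orm3, the inter-alpha-trypsin inhibitor heavy chains Itih3 and Itih4, the pentraxins Apcs and Crp, ceruloplasmin (Cp), fetuin-A (Ahsg) and albumin (Alb). They were chosen by gene symbol from 57010 genes in a table of RNA sequencing of mouse liver, and all 10 passed the filter on low counts. The 9 libraries come from liver of male BALB/c mice, with 3 titled AT3, 3 titled CPT and 3 titled CON. AT3 and CPT carry 1 shared treatment label, liver injury of an acute kind from cisplatin (a platinum compound that binds DNA), and CON is labelled as having no treatment. No sample label spells out AT3, and the title of the series includes atractylenolide III, a sesquiterpene lactone from plants. Age, dose, route and time: nothing is given in the sources used here. No label ties a replicate to its own animal, and the p-values below thus reflect library-to-library spread that may be technical.

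The acute phase response is the change in plasma proteins that follows injury or infection. Hepatocytes make most of these proteins, and interleukin-6, interleukin-1 and glucocorticoids act on their genes through STAT3, C/EBP factors, NF-kB and the glucocorticoid receptor. Orosomucoids, also called alpha-1-acid glycoproteins, are lipocalins that bind drugs and lipids in plasma. Serum amyloid P component, the product of Apcs, is the main acute phase pentraxin of the mouse, whereas C-reactive protein has that role in humans. Albumin and fetuin-A are usually described as negative acute phase proteins, whose plasma levels drop in inflammation.

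The orosomucoid genes lie side by side on the plus strand of chromosome 4, in the order Orm1, Orm3 and Orm2, within 21.32 kb (GRCm38, GENCODE M21). Orm1 (ENSMUSG00000039196) runs from 63344560 to 63348163, Orm3 (ENSMUSG00000028359) from 63356162 to 63359511 and Orm2 (ENSMUSG00000061540) from 63362449 to 63365878, each a protein-coding gene of 6 exons with 1 annotated transcript. The Orm1 and Orm2 transcripts were identical at 90.97% of aligned positions, Orm1 and Orm3 at 86.08% and Orm2 and Orm3 at 88.02%. Of all stretches of 50 bases, 79.6% in Orm1, 78.2% in Orm2 and 96.4% in Orm3 occurred in neither of the other transcripts. The deposited counts of these genes were not whole numbers in any of the 9 libraries, so the division of reads among them is an estimate.

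The 150 bases before the start site are shown for the neighbours Orm2 and Orm3, since their fold changes were far apart, and for the pentraxins Apcs and Crp, for the same reason. The sequences are from RefSeq on GRCm38.p6, which is C57BL/6J and not BALB/c, and are written from 5′ to 3′ on each gene's own strand. Capitals mark matches, on either strand, to TTGCNNAA (C/EBP), TTCNNNGAA (STAT), CTGGGAA (core of the IL-6 response element), AGAACA (hexamer of the glucocorticoid receptor, 1 of the 2 arms of a full element), GGGANTTTC (NF-kB) or GTTAATNAT (HNF1). Orm2 spans chr4:63362299-63362448 (plus strand), Orm3 chr4:63356008-63356157 (plus), Apcs chr1:172895055-172895204 (minus) and Crp chr1:172697906-172698055 (plus).
Orm2: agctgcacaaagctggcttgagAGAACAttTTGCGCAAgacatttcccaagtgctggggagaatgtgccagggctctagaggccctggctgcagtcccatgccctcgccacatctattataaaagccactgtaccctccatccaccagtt
Orm3: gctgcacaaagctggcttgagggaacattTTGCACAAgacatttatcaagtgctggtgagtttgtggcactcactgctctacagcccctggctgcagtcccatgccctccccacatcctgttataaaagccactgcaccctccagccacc
Apcs: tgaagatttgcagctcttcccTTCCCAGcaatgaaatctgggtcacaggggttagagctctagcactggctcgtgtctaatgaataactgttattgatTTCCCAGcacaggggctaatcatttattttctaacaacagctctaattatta
Crp: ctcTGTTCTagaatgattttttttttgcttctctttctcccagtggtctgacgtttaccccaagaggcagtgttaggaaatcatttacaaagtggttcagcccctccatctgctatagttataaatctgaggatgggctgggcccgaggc

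The Orm2 and Orm3 windows were identical at 83.23% of aligned positions. Both held the C/EBP letters, at bases -120 to -113 in Orm2 and -121 to -114 in Orm3 counted from the start site, and Orm2 also held the glucocorticoid receptor hexamer at -128 to -123. Apcs held the IL-6 response element core at -129 to -123 and again at -52 to -46, and Crp held a glucocorticoid receptor hexamer at -147 to -142. Farther out than the printed bases, Apcs also held that hexamer, at -169 to -164, and the STAT letters, at -244 to -236. Over 250 bases before the start site, the C/EBP letters occurred in 5 of the 10 windows found for 9 member genes (all but Orm1) and in 9.56% of 32851 mouse windows. The glucocorticoid receptor hexamer occurred in 5 member windows and 16.1% of all, the STAT letters in 2 and 7.02%, the IL-6 element core in 1 and 9.10%, the HNF1 letters in 2 and 0.737%, and the NF-kB letters in 0 and 0.941%. These are matches of letters, not measured binding sites.

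Totals were 21485021 to 28480479 estimated counts a library. All 7 hepatocyte markers (among them Apoa1, Ttr and Cps1) were detected, with a summed level of 22863 to 23902 TPM in AT3, 18183 to 21696 TPM in CPT and 17848 to 23885 TPM in CON, most of it Apoa1 and Ttr. The markers did not move alike. In TPM, Apoa1 and Ttr overlapped between CPT and CON. By counts, edgeR called both lower in CPT against CON, with log2 fold changes of -0.87 and -0.68 (adjusted p = 8.33e-06 and 1.41e-04). In AT3 against CON these were -0.62 and -0.70 (adjusted p = 1.73e-04 and 9.42e-05). The urea cycle gene Cps1 lay at 399 to 457 TPM in AT3, 227 to 333 TPM in CPT and 30.1 to 51.7 TPM in CON. Apob, Tat and F2 likewise lay above CON in both injured groups without overlap, with Tat at 1040 to 1067 TPM in AT3, 571 to 819 TPM in CPT and 111 to 165 TPM in CON. Transcripts of the mitochondrial genome were taken as genes with a symbol starting in mt-. They took 9.79% to 11.4% of counts in AT3, 11.2% to 16.3% in CPT and 25.8% to 36.8% in CON. This share bears on every level given per library total. The 5 neutrophil markers summed to 31.3 to 37.0 TPM in AT3, 60.4 to 143 TPM in CPT and 5.07 to 7.24 TPM in CON, with Ly6g and Mpo at most 0.14 TPM. Erythroid markers summed to 46.5 to 51.3 TPM in AT3, 57.9 to 63.4 TPM in CPT and 1186 to 1400 TPM in CON. Most of the sum in AT3 and CPT was Alas2, at 31.1 to 38.0 TPM in AT3, 48.6 to 55.2 TPM in CPT and 97.5 to 110.6 TPM in CON. Haemoglobin genes took 0.000573% to 0.000675% of counts in AT3, 0.000267% to 0.000656% in CPT and 0.0594% to 0.0693% in CON. Markers of sinusoidal endothelium summed to 2.50 to 6.13 TPM in AT3, 2.02 to 2.83 TPM in CPT and 9.18 to 13.7 TPM in CON. Those of stellate cells summed to 11.7 to 19.0 TPM in AT3, 15.5 to 22.2 TPM in CPT and 27.1 to 45.7 TPM in CON. Both sums were lower than CON without overlap. Lyve1 of the endothelial list went the other way, at 0.31 to 0.72 TPM in AT3, 0.20 to 0.35 TPM in CPT and 0.07 to 0.15 TPM in CON. Dcn, the largest part of the stellate sum, overlapped between CPT and CON, at 13.7 to 19.5 TPM in CPT and 17.5 to 30.9 TPM in CON. Bile duct markers summed to 18.0 to 20.7 TPM in AT3, 12.3 to 16.9 TPM in CPT and 7.47 to 11.9 TPM in CON. Most of that sum was Spp1, at 16.9 to 19.7 TPM in AT3, 11.3 to 15.4 TPM in CPT and 6.61 to 10.02 TPM in CON. Krt19 and Sox9 overlapped between the groups, at most 1.27 and 0.21 TPM. Lymphocyte markers summed to 0.23 to 0.33 TPM in AT3, 0.32 to 0.50 TPM in CPT and 0.55 to 1.56 TPM in CON. Cd3e went the other way, at 0.10 to 0.15 TPM in AT3, 0.18 to 0.25 TPM in CPT and at most 0.04 TPM in CON. Kupffer cell markers summed to 9.53 to 11.2 TPM in AT3, 5.58 to 9.33 TPM in CPT and 10.02 to 13.1 TPM in CON. Within that list Marco was higher than CON, at 0.29 to 0.39 TPM in AT3, 0.17 to 0.25 TPM in CPT and at most 0.07 TPM in CON. Timd4 was lower, at 0.05 to 0.10 TPM in AT3, 0.03 to 0.17 TPM in CPT and 0.34 to 0.64 TPM in CON, and Cd5l was lower than CON too. Pancreatic markers overlapped in all groups at 20.6 to 36.8 TPM, with Prss1 and Cpa1 at 0. The part of these cells in the results below was not tested, and in whole liver fewer cells of a type cannot be told apart from less RNA per cell.

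Of the 10 genes, 9 rose in CPT against CON, where edgeR at adjusted p < 0.05 called 60.8% of 13686 tested genes, 30% higher and 30.8% lower. All 10 rose in AT3 against CON, where 64.4% of all genes were called, 31.5% higher and 32.9% lower. Both comparisons use the same 3 CON libraries. The median log2 fold change of the 10 genes was 2.21 in CPT against CON, beside -0.02 over all tested genes, and 2.33 in AT3 against CON, beside -0.04. The libraries did not overlap for 9 members in CPT against CON (64.2% of all genes) and for 10 in AT3 against CON (70.3%).

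In AT3 against CPT, 2 of the 10 genes were called higher, Itih3 and Alb, and 0 lower, where 4.68% of all genes were called, 2.46% higher and 2.22% lower. In 3 members, Itih3, Ahsg and Alb, the libraries did not overlap between the groups, against 27% of all genes. At an unadjusted p under 0.05, 3 were higher and 0 lower, a threshold at which the share over all genes was not computed. DESeq2 called 2 higher and 0 lower, beside 431 higher and 383 lower of the 10669 genes to which it gave an adjusted p.

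Together the 10 genes took 9.28% ± 0.0231 of all counts in AT3, 6.98% ± 0.745 in CPT and 3.71% ± 0.778 in CON (mean ± SD, n = 3 each). The groups did not overlap, at 9.26% to 9.30% in AT3, 6.34% to 7.80% in CPT and 2.99% to 4.53% in CON. A two-sided exact permutation test gave p = 0.1 for each pair of groups, the smallest that 3 against 3 libraries allow. Albumin was the largest part, with mean counts of 1619586 in AT3, 1057848 in CPT and 791136 in CON. Ahsg came next, with 500649 in AT3, 369720 in CPT and 64387 in CON. The total here includes mitochondrial counts. Outside these, albumin alone took 6.57% in AT3, 4.70% in CPT and 4.73% in CON. The abundant genes Gm28437 and Gm28661 stayed in that total, and whether they hold mitochondrial reads was not tested.

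Per length, in TPM (transcript abundance scaled to length and to an equal total in each library), albumin led the set in every group with a level of 28923 ± 67.4 TPM in AT3, 18770 ± 3386 TPM in CPT and 13024 ± 2946 TPM in CON. Ahsg followed at 13407 ± 317 TPM in AT3, 10246 ± 1626 TPM in CPT and 2315 ± 518 TPM in CON. In AT3 and in CPT the order went on with Orm1, Itih4, Orm2, Apcs, Itih3, Cp, Crp and Orm3. In CON it was Itih4, Orm1, Apcs, Cp, Itih3, Crp, Orm2 and Orm3. Neighbours in that order overlapped in 3 places, Ahsg and Orm1 in CPT, Itih4 and Orm1 in CON, and Cp and Itih3 in CON. Orm2 thus stood below Crp in CON and above Apcs in both injured groups.

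**Figure D1:**
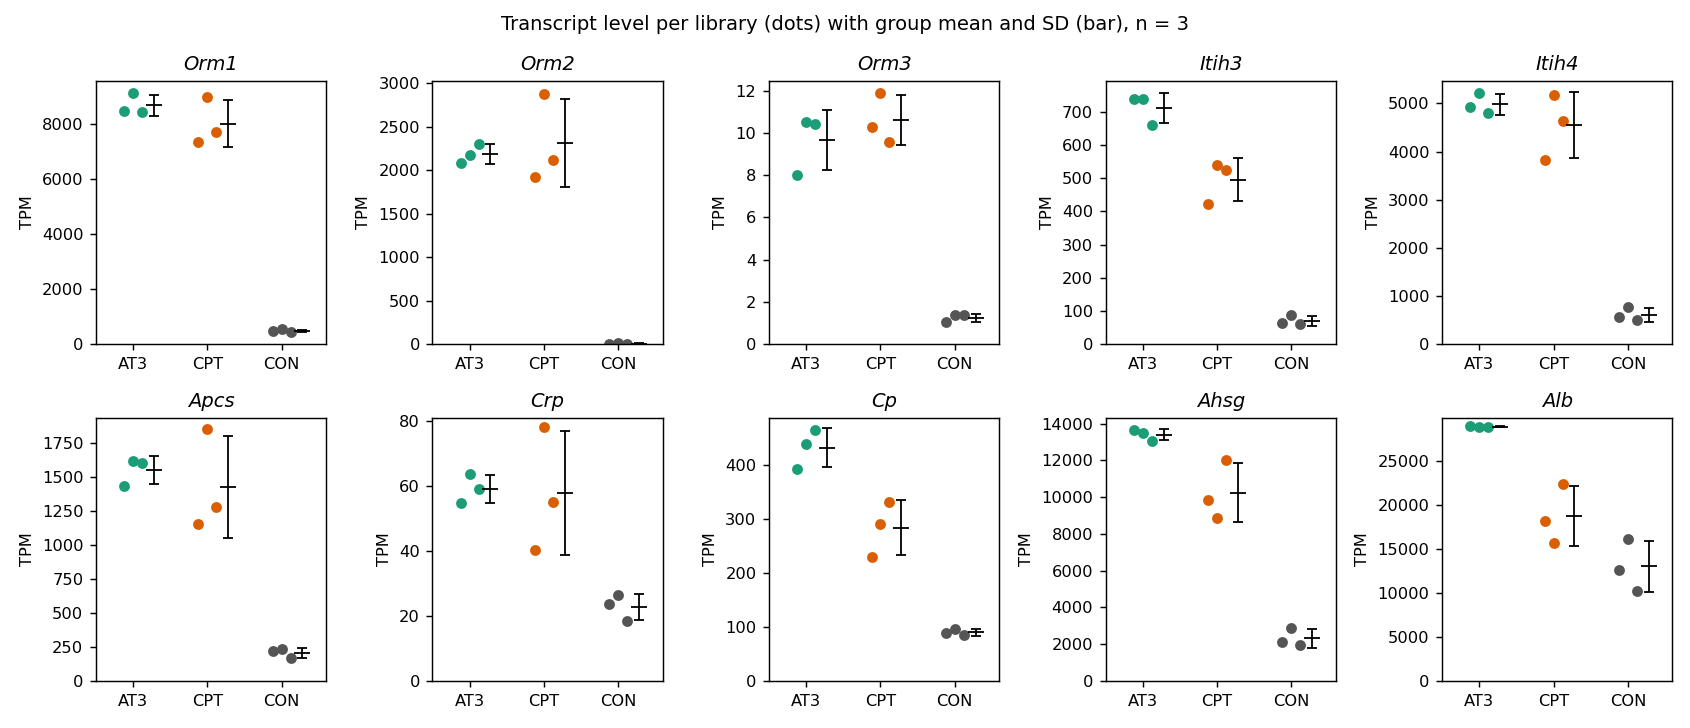
Level of each gene in TPM (y axis, linear from 0, its own scale in each panel) in the AT3, CPT and CON libraries, with dots for libraries and bars for the mean and SD of 3. For 9 genes every CPT and AT3 library lies above every CON library, while the albumin levels of 15724 to 22416 TPM in CPT overlap the 10276 to 16134 TPM of CON.

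Orm2 had the largest change of the set. It measured 1162, 1187 and 1366 CPM (counts relative to the TMM-scaled library size) in AT3_1 to AT3_3, 1226, 1694 and 1229 CPM in CPT_1 to CPT_3, and 5.40, 6.56 and 7.15 CPM in CON_1 to CON_3. CPT_2 was the highest library, and both injured groups were far above CON without overlap. The log2 fold change was 7.76 ± 0.19 (SE) in CPT against CON (217-fold, edgeR adjusted p = 6.35e-14) and 7.60 ± 0.18 in AT3 against CON (194-fold, adjusted p = 7.94e-14). AT3 and CPT overlapped, with a log2 fold change of -0.16 ± 0.13 (95% interval -0.45 to 0.13, adjusted p = 0.550).

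Orm1 started from a higher level. It measured 4720.1, 4958 and 4995 CPM in AT3, 4677, 5279 and 4456 CPM in CPT, and 444, 422 and 487 CPM in CON. Its log2 fold change was 3.41 ± 0.12 (SE) in CPT against CON (10.7-fold, adjusted p = 4.60e-12) and 3.44 ± 0.12 in AT3 against CON (10.8-fold, adjusted p = 5.01e-12). AT3 and CPT livers overlapped, with a log2 fold change of 0.03 ± 0.11 (95% interval -0.20 to 0.25, adjusted p = 0.929).

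Orm3 was a minor transcript throughout, at 4.46, 5.70 and 6.16 CPM in AT3, 6.54, 6.97 and 5.54 CPM in CPT, and 0.955, 1.06 and 1.46 CPM in CON. It rose by 2.46 ± 0.21 (log2, SE) in CPT against CON (adjusted p = 7.70e-08) and by 2.24 ± 0.21 in AT3 against CON (adjusted p = 1.93e-07). Between AT3 and CPT the log2 fold change was -0.23 ± 0.16 (95% interval -0.58 to 0.12, adjusted p = 0.476).

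The mix of orosomucoid transcripts changed as well. Of the summed Orm1, Orm2 and Orm3 counts, Orm2 took 19.7%, 19.3% and 21.5% in AT3, 20.7%, 24.3% and 21.6% in CPT, and 1.20%, 1.53% and 1.45% in CON. The exact permutation test gave p = 0.1 in CPT against CON and in AT3 against CON, and p = 0.2 in AT3 against CPT. In mean TPM, Orm1 was 3.96 times Orm2 in AT3, 3.47 times in CPT and 70.4 times in CON. With the counts of the 3 genes summed into 1 gene and refitted, which does not depend on how shared reads were divided among them, the log2 fold change was 3.76 ± 0.13 (SE) in CPT against CON (adjusted p = 3.70e-12), 3.74 ± 0.13 in AT3 against CON (adjusted p = 4.28e-12) and -0.01 ± 0.11 in AT3 against CPT (adjusted p = 0.965).

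**Figure D2:**
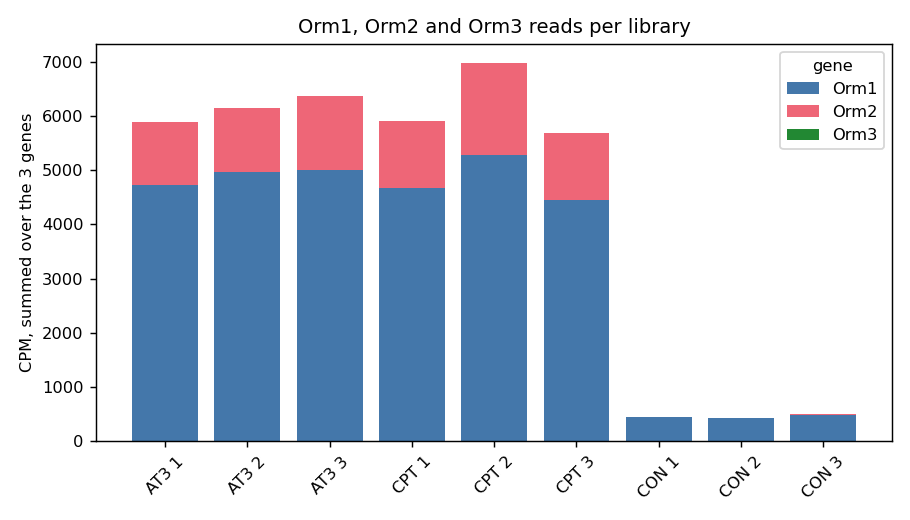
Reads of Orm1, Orm2 and Orm3 stacked in each library, in CPM on a linear axis from 0, with AT3 libraries on the left, then CPT and CON. Orm2 forms 19.3% to 24.3% of the stack in the injured livers and at most 1.53% in CON, and Orm3 is too small to see.

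The inter-alpha-trypsin inhibitor heavy chains are secreted proteins, several of which bind hyaluronan in the matrix. Itih3 and Itih4 are neighbours on chromosome 14 (30908572 to 30923760 and 30886476 to 30902353). Itih3 (ENSMUSG00000006522) measured 2097, 2062 and 2008 CPM in AT3, 1383, 1602 and 1549 CPM in CPT, and 300.3, 348 and 321 CPM in CON. Each group stood apart from the others. The log2 fold change was 0.44 ± 0.10 (SE) in AT3 against CPT (1.36-fold, adjusted p = 0.0228), 2.23 ± 0.11 in CPT against CON (adjusted p = 1.28e-10) and 2.67 ± 0.11 in AT3 against CON (adjusted p = 1.96e-11). The call in AT3 against CPT was lost without CPT_1 (adjusted p = 0.0670), AT3_1 (0.104), AT3_2 (0.0825) or AT3_3 (0.0663), and on the log2(TPM + 1) scale (0.178), with log2 fold changes of 0.38 to 0.53 in these fits.

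Itih4 (ENSMUSG00000021922), whose product is a kallikrein-sensitive plasma glycoprotein, measured 3816, 3887 and 3936 CPM in AT3, 3262, 4071 and 3803 CPM in CPT, and 664, 760.0 and 662 CPM in CON. CPT and AT3 overlapped and both lay above CON. It rose by 2.42 ± 0.12 (log2, SE) in CPT against CON (adjusted p = 1.54e-10) and by 2.48 ± 0.12 in AT3 against CON (adjusted p = 1.01e-10). It was 0.06 ± 0.11 in AT3 against CPT (95% interval -0.17 to 0.30, adjusted p = 0.806).

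Itih2, Ambp and Itih1, which belong with this family and are given here after their values were seen, had smaller fold changes against CON than Itih3 and Itih4, a difference that was not tested. The heavy chain gene Itih5 went the other way at a low level, 1.06 ± 0.297 CPM in AT3, 0.687 ± 0.0566 CPM in CPT and 1.22 ± 0.284 CPM in CON. Its log2 fold change was -0.84 in CPT against CON (adjusted p = 0.0441) and -0.21 in AT3 against CON (adjusted p = 0.585). Itih2, a heavy chain of inter-alpha-inhibitor, measured 708 ± 42.3 CPM in AT3, 483 ± 68.6 CPM in CPT and 280.3 ± 25.3 CPM in CON. It was called in every pair of groups, with log2 fold changes of 0.55 in AT3 against CPT (adjusted p = 0.0139), 0.79 in CPT against CON (adjusted p = 2.60e-05) and 1.34 in AT3 against CON (adjusted p = 8.18e-08). The Itih2 call in AT3 against CPT was lost without CPT_2 (adjusted p = 0.0676), AT3_1 (0.0553) or AT3_3 (0.0692), and on the log2(TPM + 1) scale (0.142). Ambp, which encodes the bikunin light chain, measured 2656 ± 176 CPM in AT3, 2601 ± 209 CPM in CPT and 1572 ± 159 CPM in CON, with a log2 fold change of 0.73 in CPT against CON (adjusted p = 4.56e-05). Itih1 measured 440.0 ± 7.47 CPM in AT3, 392 ± 49.4 CPM in CPT and 329 ± 1.93 CPM in CON, with 0.25 in CPT against CON (adjusted p = 0.0425). That call was lost without CPT_2 (adjusted p = 0.0695), CPT_3 (0.139), CON_1 (0.0924), CON_2 (0.0677) or CON_3 (0.0654) and with the replicate block (0.0591), and the log2(TPM + 1) scale gave 0.82.

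Pentraxins are ring-shaped pattern recognition proteins. Apcs (ENSMUSG00000026542, chromosome 1, 172893961 to 172895041) measured 1082, 1196 and 1293 CPM in AT3, 995, 1472 and 1007 CPM in CPT, and 274, 246 and 239 CPM in CON. It rose by 2.19 ± 0.15 (log2, SE) in CPT against CON (adjusted p = 5.42e-09) and by 2.23 ± 0.15 in AT3 against CON (adjusted p = 3.71e-09). The AT3 libraries lay within the range of CPT, at a log2 fold change of 0.04 ± 0.14 (95% interval -0.26 to 0.34, adjusted p = 0.915).

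Crp (ENSMUSG00000037942, chromosome 1, 172698055 to 172833031) measured 81.6, 93.0 and 94.2 CPM in AT3, 69.2, 122 and 86.0 CPM in CPT, and 58.3, 55.1 and 53.0 CPM in CON. The injured libraries all lay above CON, by less than for Apcs. The log2 fold change was 0.74 ± 0.15 (SE) in CPT against CON (1.67-fold, adjusted p = 7.04e-04) and 0.69 ± 0.15 in AT3 against CON (1.61-fold, adjusted p = 0.00107). On the log2(TPM + 1) scale these were 1.27 and 1.34. The log2 fold change of AT3 against CPT was -0.05 ± 0.15 (95% interval -0.37 to 0.28, adjusted p = 0.904). In mean TPM, Apcs was 26.2 times Crp in AT3, 24.6 times in CPT and 8.95 times in CON.

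CPT_2 was the highest CPT library for Orm1, Orm2, Orm3, Itih3, Itih4, Apcs, Crp and Cp in CPM, and the lowest for Ahsg and Alb. The same library had the highest levels of the neutrophil calcium-binding protein genes, with S100a8 at 46.8 TPM against 19.8 and 25.7 TPM in CPT_1 and CPT_3, and S100a9 at 80.9 TPM against 32.3 and 32.6 TPM. Whether these go together was not tested. Without CPT_2, the log2 fold change of Crp in CPT against CON was 0.50 and that of Orm2 was 7.60.

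Ceruloplasmin is the copper-carrying ferroxidase of plasma. Cp (ENSMUSG00000003617, chromosome 3, 19957054 to 20009145) measured 906, 955 and 1092 CPM in AT3, 908, 916 and 897 CPM in CPT, and 551, 498 and 606 CPM in CON. It rose by 0.72 ± 0.11 (log2, SE) in CPT against CON (1.64-fold, adjusted p = 3.09e-05) and by 0.84 ± 0.11 in AT3 against CON (1.78-fold, adjusted p = 5.66e-06), and was 0.12 ± 0.11 in AT3 against CPT (adjusted p = 0.586). The deposited TPM gave larger changes, with log2(TPM + 1) differences of 1.64 in CPT against CON, 2.25 in AT3 against CON and 0.62 in AT3 against CPT (limma adjusted p = 0.1 for the last). On that scale the median of all tested genes was 0.29, 0.32 and 0.04 in the same comparisons.

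The length that the deposited counts and TPM imply was compared between libraries, a step added after the data were seen. Genes with 1 annotated transcript set the scale, and 8 of the 10 genes had enough reads in every library. For Cp the implied length was 61.8%, 59.5% and 58.9% of the CON mean in AT3_1 to AT3_3, 92.4%, 80.2% and 69.4% in CPT_1 to CPT_3, and 100.5%, 99.2% and 100.3% in CON. The 3 groups did not overlap, and the exact permutation test gave p = 0.1 in each pair, its smallest value. Of 5955 genes measured in this way, 0.487% shortened at least as much as Cp in AT3 against CON and 3.38% in CPT against CON. Cp has 16 annotated transcripts, 8 of them protein-coding, of 484 to 4564 bases.

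Ahsg moved the other way, to an implied length of 148.7% ± 0.467 of the CON mean in AT3 and 142.5% ± 4.43 in CPT, against 100.3% ± 9.68 in CON itself (n = 3 each). Itih4 was at 108.8% ± 1.16 in AT3 and 107.5% ± 3.35 in CPT, against 100% ± 0.459 in CON. For Ahsg and Itih4 the share of all genes that lengthened at least as much was not computed. Orm1, Itih3, Apcs, Crp and Alb stayed within 98.5% and 101.4% in all 9 libraries. The tables analysed here are per gene, so no transcript is named for these changes of implied length, and their cause was not tested.

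**Figure D3:**
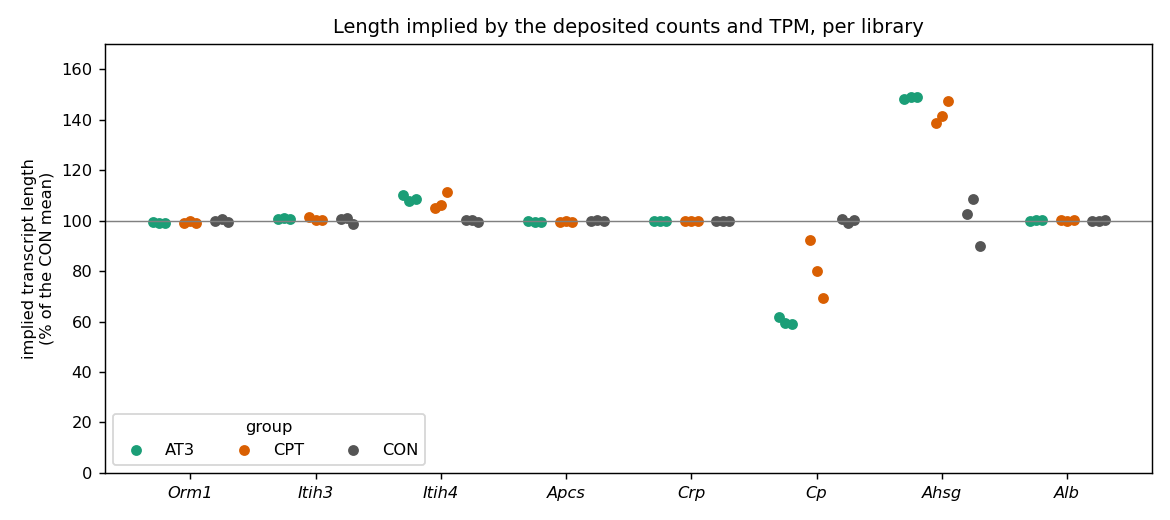
Transcript length implied by the deposited counts and TPM (y axis, percent of the CON mean, linear from 0) for 8 genes in the AT3, CPT and CON libraries, 1 dot a library. Cp falls to 58.9% to 61.8% in AT3 and 69.4% to 92.4% in CPT, Ahsg lies at 138.7% to 149.0% in both injured groups, and 5 other genes stay near 100%.

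Fetuin-A binds calcium phosphate and keeps it from mineralising in blood. Its gene Ahsg (ENSMUSG00000022868, chromosome 16, 22891277 to 22899449) measured 16649, 16217 and 17087 CPM in AT3, 12925, 10810.1 and 15232 CPM in CPT, and 2938, 3622 and 2737 CPM in CON. All 3 groups stood apart. The log2 fold change was 2.07 ± 0.14 (SE) in CPT against CON (4.19-fold, adjusted p = 9.53e-09) and 2.43 ± 0.15 in AT3 against CON (5.37-fold, adjusted p = 1.48e-09), upward for a gene of the negative acute phase class. Its log2 fold change in AT3 against CPT was 0.36 ± 0.14 (95% interval 0.06 to 0.66), which did not pass the test over all genes (adjusted p = 0.157, and 0.0432 without CPT_3).

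Albumin carries fatty acids, hormones and drugs in plasma. Alb (ENSMUSG00000029368, chromosome 5, 90460897 to 90476602) measured 53115, 51939 and 56686 CPM in AT3, 38283, 30281 and 42967 CPM in CPT, and 38425, 41174 and 36073 CPM in CON. CPT and CON overlapped, while every AT3 library lay above the others. In CPT against CON the log2 fold change was -0.05 ± 0.14 (SE, 95% interval -0.34 to 0.24, adjusted p = 0.755). On the log2(TPM + 1) scale it was 0.54 (limma adjusted p = 0.0307), or 0.25 above the shift of all genes, so its direction depends on the scaling. In AT3 against CON it was 0.48 ± 0.14 (1.40-fold, adjusted p = 0.00556).

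Albumin was higher in AT3 than in CPT by 0.54 ± 0.14 (log2, SE, 1.45-fold, adjusted p = 0.0353). That call was lost in 5 of the 6 fits that left out a library, with adjusted p = 0.130 without AT3_1, 0.104 without AT3_2, 0.126 without AT3_3, 0.0725 without CPT_1 and 0.118 without CPT_2. The replicate block gave adjusted p = 0.0573. In all these fits the log2 fold change was 0.41 to 0.56. Of counts outside the mt- genes, with Gm28437 and Gm28661 left in, albumin took 6.54%, 6.49% and 6.69% in AT3. It took 4.87%, 3.92% and 5.29% in CPT, and 4.71%, 5.34% and 4.14% in CON. The exact permutation test of this share gave p = 0.1 in AT3 against CPT and in AT3 against CON, and p = 0.9 in CPT against CON.

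**Figure D4:**
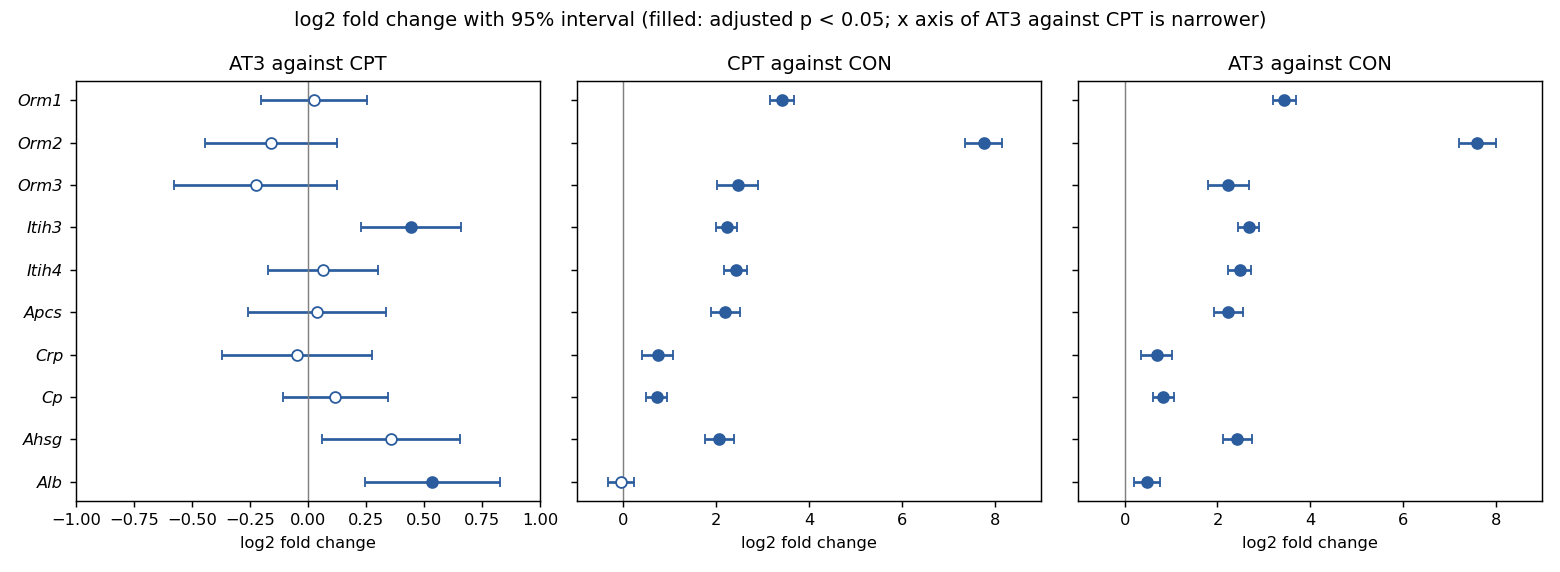
log2 fold change of each gene (x axis) with its 95% interval, in AT3 against CPT, CPT against CON and AT3 against CON, filled where the edgeR adjusted p is under 0.05. Against CON, Orm2 lies far out at 7.76 and 7.60, and the narrower axis of AT3 against CPT shows intervals across 0 for all genes but Itih3, Ahsg and Alb.

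Of 25 other genes listed here as acute phase genes that rise, not all of them for plasma proteins, 24 were tested. In CPT against CON 19 rose, 2 fell and 3 were not called, and in AT3 against CON 21 rose, 1 fell and 2 were not called, with medians of 3.05 and 2.85 (log2). The serum amyloid A gene Saa2 measured 6937 ± 802 CPM in AT3, 7491 ± 1612 CPM in CPT and 1.91 ± 0.224 CPM in CON, and the siderophore-binding Lcn2 3407 ± 362 CPM in AT3, 3752 ± 161 CPM in CPT and 4.86 ± 1.39 CPM in CON. The Saa2 value is uncertain in that Saa1, a close copy, can share its reads. Of these genes, in AT3 against CPT, 2 rose, 3 fell and 19 were not called, with a median of -0.01. The falls were Saa3 (log2 fold change -0.97), the ferrireductase Steap4 (-0.66) and the iron hormone gene Hamp (-0.65), and the rises the antitrypsin copies Serpina1a (1.30) and Serpina1b (0.86), which can share reads. The call of Steap4 was lost without CPT_2 (adjusted p = 0.0567) or AT3_1 (0.0787), and that of Hamp without CPT_1 (0.0578), CPT_2 (0.147), AT3_1 (0.166) or AT3_2 (0.129) and with the replicate block (0.0516). On the log2(TPM + 1) scale Steap4, Hamp and Serpina1b were not called (limma adjusted p = 0.143, 0.249 and 0.0550).

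The haemoglobin scavenger haptoglobin and the haem carrier hemopexin, named after their values were seen, were also higher in both injured groups than in CON. Hp measured 31103 ± 1010 CPM in AT3, 30934 ± 962 CPM in CPT and 2616 ± 130.1 CPM in CON. Hpx measured 15537 ± 1192 CPM in AT3, 17633 ± 1127 CPM in CPT and 2949 ± 230.7 CPM in CON. Neither was called in AT3 against CPT (adjusted p = 0.979 and 0.397).

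The 15 other plasma carriers usually described as falling did not move one way. In CPT against CON and in AT3 against CON 7 rose, 7 fell and 1 was not called, with medians of -0.05 in both. The corticosteroid-binding globulin gene Serpina6 measured 16.7 ± 1.13 CPM in AT3, 20.3 ± 5.58 CPM in CPT and 310.0 ± 25.1 CPM in CON. The thyroxine-binding globulin gene Serpina7 measured 275 ± 34.2 CPM in AT3, 355 ± 2.79 CPM in CPT and 19.6 ± 3.12 CPM in CON. Transferrin (Trf) rose by 1.26 in CPT against CON and 1.59 in AT3 against CON, and the apolipoprotein gene Apoa2 fell by 0.94 and 1.18 on the log2 scale. For AT3 against CPT, edgeR called 0 of the 15, with 2 higher and 2 lower at an unadjusted p under 0.05. DESeq2 called 1 higher and 1 lower, beside 814 of 10669 genes. The share of all genes at the unadjusted threshold was not computed.

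Of 23 genes related to the 10 by family, 18 were tested, and in CPT against CON, as in AT3 against CON, 12 rose, 3 fell and 3 were not called (medians 0.61 and 0.71). Kininogens, cystatin relatives of fetuin, were among the rises, with Kng2 at 2.22 and Kng1 at 1.14 in CPT against CON. Among the falls were the lipocalins Ptgds, at 0.226 ± 0.114 CPM in AT3, 0.206 ± 0.156 CPM in CPT and 2.63 ± 0.50 CPM in CON, and Obp2a, at 1.49 ± 0.322 CPM in AT3, 1.37 ± 0.594 CPM in CPT and 3.13 ± 0.659 CPM in CON. Lcn2, given above, is a lipocalin too and also counts among the acute phase genes described as rising. Fetub, Hrg, Gc, Rbp4 and Apom count both here and among the carriers described as falling. Hrg, Gc, Rbp4 and Apom rose in CPT and in AT3 against CON, so the counts of these lists are not separate. Itih2 was the 1 relative called in AT3 against CPT.

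Of 29 genes of the cytokine and transcription factor input, 27 were tested. In CPT against CON 15 rose, 7 fell and 5 were not called, and in AT3 against CON 16 rose, 7 fell and 4 were not called (medians 0.58 and 0.51). Socs3, the STAT3-induced feedback inhibitor, measured 38.3 ± 4.39 CPM in AT3, 66.9 ± 10.5 CPM in CPT and 4.80 ± 2.0 CPM in CON. Stat3 measured 106 ± 5.92 CPM in AT3, 99.6 ± 10.1 CPM in CPT and 30.2 ± 1.82 CPM in CON. Fkbp5, a glucocorticoid receptor target, measured 156 ± 1.93 CPM in AT3, 106 ± 8.64 CPM in CPT and 8.93 ± 1.09 CPM in CON.

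Of the input genes, in AT3 against CPT, 2 rose, 3 fell and 22 were not called (median -0.09). Socs3 fell by 0.80, Cebpa by 0.55 and the NF-kB inhibitor gene Nfkbia by 0.40 on the log2 scale (adjusted p = 0.0158, 0.0159 and 0.0331). Tsc22d3 and Fkbp5, both glucocorticoid receptor targets, rose by 0.87 and 0.57 (adjusted p = 0.00126 and 0.00479). All 3 falls lost their call without CPT_2 (adjusted p = 0.0860 for Socs3, 0.0817 for Cebpa and 0.143 for Nfkbia) and without AT3_1 (0.0997, 0.0843 and 0.139 in the same order). Socs3 also lost it without AT3_3 (0.0752), Cebpa without AT3_2 (0.0832), and Nfkbia without AT3_2 (0.126) or AT3_3 (0.115). None of these 5 genes was called on the log2(TPM + 1) scale (limma adjusted p = 0.0544 for Tsc22d3 to 0.424 for Nfkbia). Tsc22d3 was lower in CPT than in CON by counts, at 47.9 ± 7.38 CPM in CPT and 132 ± 16.4 CPM in CON. The C/EBP genes Cebpb and Cebpd, given after their values were seen, measured 79.8 ± 4.14 and 13.1 ± 1.04 CPM in AT3, 95.2 ± 3.32 and 17.0 ± 1.16 CPM in CPT, and 63.8 ± 6.29 and 6.33 ± 0.776 CPM in CON.

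The genes most like Orm2 over the 9 libraries, by root mean square difference of log2(CPM + 0.5) after each gene's CON mean was taken off, were Nnmt (0.66), Btg2 (1.12), Mt1 (1.17) and Saa1 (1.49), among 5439 genes with a mean of at least 10 CPM. Those most like Ahsg were Arg1 (0.10), Pole4 (0.13), Timm17a (0.13) and Ifitm2 (0.14). In this measure a gene counts as like another where its change against CON is of like size.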

How the data were processed

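Per the labels' protocols, sequencing libraries came from liver RNA and a SMARTer kit for mRNA. The authors deposited estimated counts per gene and TPM values per library. The aligner, the counter and any strand setting were not given in the sources used here, and the submitters' processing notes name GRCm38, mm10 and GRCm39 with no role. Overlapping and antisense genes therefore cannot be told apart. From 7.96% to 9.55% of the values in a library were not whole, and the deposited estimated counts were rounded before tests. The authors' TPM values, scaled to length and to 1 total per library, served for levels between genes and for alternatives. The authors' group means were not used, and 0 columns of other samples were found.

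The test was edgeR 4.0.16 (R 4.3.3): its quasi-likelihood test after TMM scaling and filterByExpr, with the 9 libraries in a single model of group means. P-values were adjusted by Benjamini-Hochberg across 13686 genes and genes called at adjusted p < 0.05. It was tested on simulated data. Alternatives used limma 3.58.1, DESeq2 1.42.0, other scalings and filters, left-out libraries and the replicate number as a block. No 2 replicates agreed within sampling noise (chi-square per degree of freedom 7.08 to 97.2). Deviations from the group means correlated at -0.0378 to 0.0762 for equal replicate numbers and -0.0577 to 0.0370 for others. Between CPT and AT3, equal numbers gave 0.0518, 0.0762 and 0.0668, and unequal numbers -0.0577 to -0.0185. The deviations of a group's libraries cancel out for each gene, so the values for equal and unequal numbers are tied to each other. Whether the labels' replicate numbers pair the CPT and AT3 libraries is not settled by these weak correlations. A floor of 3 counts corresponds to 0.105 to 0.140 CPM, an allowance for counting error only.

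Implied lengths are deposited counts over TPM for genes with at least 100 counts and 1 TPM in every library, scaled by 497 genes with 1 GENCODE M21 transcript. Members and gene lists were chosen with earlier results of these data known. All members are named, and from each further list up to 3 called genes a direction with the smallest p, at a mean of at least 1 CPM, and which of these are printed was chosen afterwards. No protein sequences were used here, so transcripts were compared in place of the planned proteins.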

Additional observations from a re-analysis of the deposited data

How the results depend on the processing

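Against CON, every call among the 10 genes held in all alternatives run, except that Alb in CPT against CON, not called by edgeR, was called at 0.54 (log2) with log2(TPM + 1) and with log2(TPM + 0.1), a reversed sign. Its share of counts outside the mitochondrial genome likewise turned from -0.0362 to 0.361 percentage points on summed TPM, and left-out libraries gave -0.335 to 0.349, with 0.349 without CPT_2 and 0.268 without CON_2.

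In AT3 against CPT the calls depend on the setting. Of the 10 genes, 2 were called, 0 with log2(TPM + 1) or log2(TPM + 0.1), 1 with the replicate block, 1 with only the 6 libraries compared, and 0 to 3 when 1 library was left out. Of the rising acute phase genes 5 were called, 2 with log2(TPM + 1), 1 with log2(TPM + 0.1), 4 with the replicate block and 3 to 6 with left-out libraries. Of the falling carriers 0 were called, 2 by DESeq2, 2 with no filter on low counts and 0 to 2 with left-out libraries. Of the family relatives 1 was called, 4 by DESeq2, 4 with no filter, 0 on both TPM scales, 2 with only the 6 libraries compared and 0 to 4 with left-out libraries. Of the input genes 5 were called, 8 with no filter, 0 on both TPM scales and 2 to 7 with left-out libraries. Over all genes 641 were called, 1174 with no filter, 45 and 32 on the TPM scales, and 172 (without AT3_2) to 1316 (without CPT_3). The replicate block, with 451 genes called, ended the calls of Alb and Hamp, and that of Itih1 in CPT against CON, among the genes named. Itih5 is left out of that statement, since its values in the other fits were not drawn up. The cause of these changes was not tested.

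Signs also turned on the TPM scales for Hamp (0.23 in both) and Nfkbia (0.22 and 0.23) in CPT against CON, and for Tsc22d3 (0.24 in both) in AT3 against CON. On log2(TPM + 1), the median of all genes moved by 0.29 in CPT against CON, where calls divided into 6631 higher and 1604 lower, beside 4107 and 4219 by edgeR, and by 0.32 in AT3 against CON (7017 and 1698, beside 4312 and 4501).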
